A study of Mus musculus with 45 samples.

Results

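The genes described here are the long non-coding RNA (lncRNA) genes that mouse oocytes expressed most: the rows with the lncRNA biotype in the count table whose mean over all 45 libraries reached 20 CPM (counts per 1000000 counts of the library). Of 9949 lncRNA rows, 4007 had a count in any library, 176 reached that level and 175 were kept, because Gm17830, at 107.67 CPM, was set aside by name together with other lncRNAs such as H19 and Kcnq1ot1, which lay below the level. Each library held the RNA of a single mouse oocyte. In AA (n = 12), AY (n = 6) and YY (n = 11) the oocyte came from a reconstituted chimeric follicle, that is, it had been moved into an emptied follicle, which was grown on in culture. AA joined an aged oocyte with aged somatic cells, AY an aged oocyte with young somatic cells, and YY a young oocyte with young somatic cells. The in vitro young (n = 8) and in vivo young (n = 8) controls were oocytes of young mice with and without culture. Strain, ages in numbers, animals of origin and meiotic stage are not given in the sources used here. The tests therefore weigh differences only against the spread among these libraries, which may be technical or reflect a small number of mice.

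Long non-coding RNAs are long transcripts without a long open reading frame. The growing oocyte makes and stores RNA for the later egg and embryo and then falls silent, so levels in a full-grown oocyte reflect storage and decay as well as synthesis. Many mouse oocyte lncRNAs are known to start within retrotransposon sequences that act as promoters in oocytes, and most have no known function.

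Total counts per library ranged from 418703 to 2201980, and every library had counts for 174 or 175 of the 175 genes. All 10 oocyte markers were detected in each group, with summed levels of 13841 to 28849 CPM per library. Of 9 granulosa markers, 7 had a count in AA, in AY and in each control group, and 6 in YY. They summed to 41.4 to 253 CPM, with 71.3 to 253 in AA, 68.9 to 196 in AY and 56.0 to 99.0 in YY. The granulosa hormone gene Amh was at 0 in every group. Each group had its own range of library numbers, so numbering and group cannot be told apart. The 45 libraries also fell into 10 patterns by 11 genes that were either present or nearly absent, none of them among the 175. Divided by group and pattern there were 15 sets of libraries, such as 9 and 3 in AA, 4 and 2 in AY, and 3, 2, 2 and 4 in YY. AA, AY and YY had no pattern in common. Comparisons among these groups therefore always set different patterns against each other, and rest on few sets per group.

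Membership followed from the level, so levels are a description. Gm30551 (20.3 CPM), Gm10637 (20.3) and 1700006J14Rik (20.04) lay just inside, and Gm5083 (19.9), Gm16169 (19.8) and Gm30725 (19.7) just outside. Most of the 175 genes carry no functional name: 119 have symbols of the Gm series, 37 end in Rik, 4 end in os with or without a number, and 15 have other names. The lncRNAs best known from somatic cells were mostly low in these oocytes. Of 48 well-studied lncRNA genes in 5 lists, 3 of which matched no symbol of the table, only Pvt1, the lncRNA beside Myc, and Mir22hg, the host transcript of miR-22, were among the 175, with means of 34.0 and 46.7 CPM. Gas5 (18.4 CPM), Snhg18 (18.8), Oip5os1 (15.8) and the nuclear RNA Malat1 (13.2) stayed below the level, and Neat1 and Xist each had a count in 1 library. Tug1 (52.4 CPM) and D6Ertd527e (3888 CPM), an abundant maternal RNA known as Sirena1, carry the protein-coding biotype in the table and so were not members. Neither Pvt1 nor Mir22hg was called in any of the 5 comparisons below.

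The 175 genes together took 1.59 to 2.21% of a library's counts (median 1.86%), of which the 10 highest took 0.572 to 0.739 percentage points. The share was 1.78 ± 0.10% in AA (SD, n = 12), 1.81 ± 0.12% in AY (n = 6), 1.91 ± 0.07% in YY (n = 11), 1.88 ± 0.13% in the cultured (n = 8) and 1.88 ± 0.15% in the uncultured young oocytes (n = 8), and the ranges of all 5 groups overlapped. The median gene had a mean of 50.9 CPM, and 40 genes reached 100 CPM. As these RNAs are short, they rank higher per length, which follows in part from the cut at 20 CPM whatever the length. Their median exon length was 1.37 kb against 4.55 kb for the 5624 protein-coding genes of at least 20 CPM with a known length, and their median level per kb was 39.0 CPM per kb against 15.4.

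C86187 was the most abundant of them by both measures, with 1889 CPM and 782 CPM per kb. It lies on chromosome 7 (46617459 to 46625660, mm39, minus strand) with no protein-coding gene within 5 kb. Its level was 1435 to 1944 CPM in AA (median 1756), 1907 to 2255 in AY (2036), 1693 to 2508 in YY (1914), 1542 to 2046 in the cultured young (1705) and 1651 to 2279 in the uncultured young oocytes (2077). These levels, like all group values below, are CPM scaled by the trimmed mean of M values (TMM), a correction for differences in library composition. All groups overlapped, and the highest library was less than double the lowest. Next by CPM came Arhgap20os (783), A730082K24Rik (686), Gm1965 (674), Gm50056 (516), AA545190 (508), Gm3143 (431), Gm17751 (425), Gm42980 (393) and Gm14820 (368). Per kb the order changed. Gm43269, with 0.518 kb of exons, stood second at 591 CPM per kb, followed by Gm3143 (449), AA545190 (434), 1700018B24Rik (397), Gm42980 (382), Gm50056 (353), Gm42817 (337), Arhgap20os (296) and A730082K24Rik (286).

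**Figure D1:**
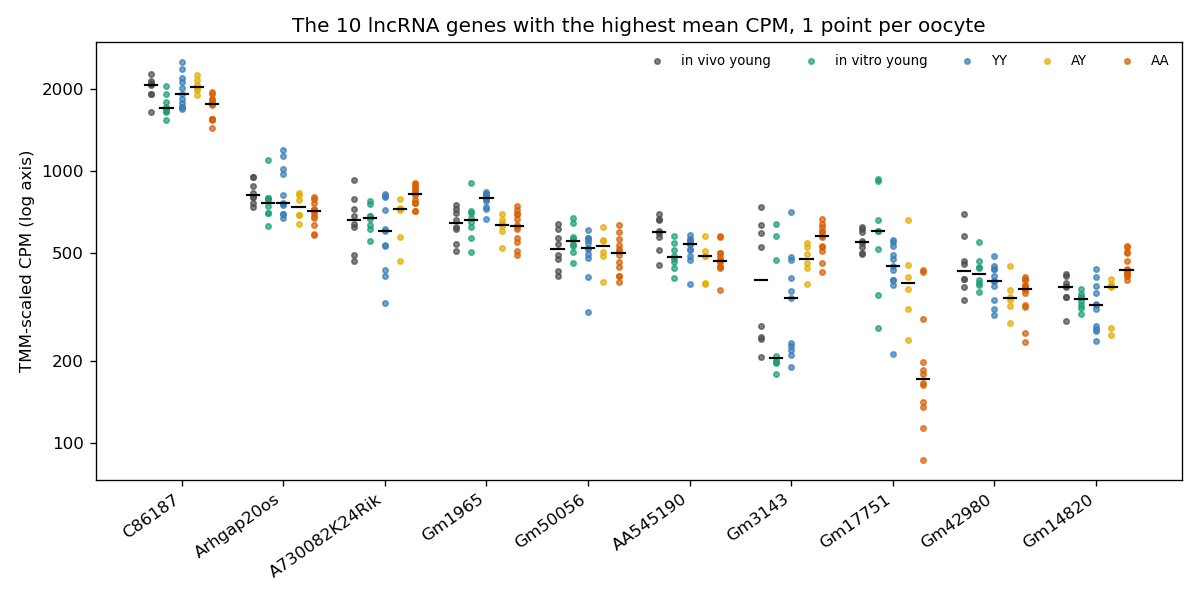
Levels of the 10 lncRNA genes with the highest mean CPM, as TMM-scaled CPM on a log axis, with 1 point per oocyte, colours for the 5 groups and a black bar at each group's median. C86187 lies above the others in every group, while Gm3143 and Gm17751 spread widely within groups, Gm3143 from 190 to 706 CPM in YY and Gm17751 from 86.2 to 430 CPM in AA.

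Spread between oocytes of a group was close to that of protein-coding genes of the same level. In AA the median coefficient of variation was 31.4% for the 86 genes with means of 20 to 50 CPM, beside 29.5% for 2131 protein-coding genes of that band. For the 49 genes of 50 to 100 CPM it was 22.1% beside 21.1%. For the 34 genes of 100 to 500 CPM it was 16.3% beside 14.7%, and in every group this band lay above its protein-coding genes. The band of 20 to 50 CPM lay below them in AY, YY and the uncultured oocytes. Gm49371, a gene on chromosome 12 chosen here after its values were seen, was among the most variable, with coefficients of variation of 63.7 to 109% across the groups and 0 counts in 2 libraries. None of the 175 genes showed a gap of 3 log2 units between libraries of the kind that defines the patterns. Gm17830, the lncRNA at this level that was set aside by name, did (3.07) and is among the 11 pattern genes, so the absence follows in part from how the 175 were chosen.

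Most of the genes stood alone: 110 of 175 had no protein-coding gene within 5 kb, 38 overlapped a protein-coding gene on the other strand, 9 started within 2 kb of one on the other strand, 4 overlapped one on the same strand and 14 lay within 5 kb otherwise. The strand setting of the counting is not known from the sources, so reads of overlapping pairs may not be told apart.

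RefSeq start-site windows (build GRCm38.p6, 250 bases before to 50 after an annotated start) were matched by symbol for 83 of the 175 genes, which had 95 windows. RefSeq lists 78 of the 83 as lncRNA genes and 5 as protein-coding, among them A530021J07Rik, Gm39469, Gm5165 and Gm6712, which appear below. A TATAAA placed 16 to 40 bases before the start on the transcribed strand occurred in 4 of the 95 (4.21%), those of C86187, Arhgap20os, Gm19299 and Gm34045. The share was 1.99% of all 32851 windows, 0.983% of those of other RefSeq lncRNA genes and 2.53% of those of protein-coding genes. TATAAA anywhere, on either strand, occurred in 13.7% of these windows and 13.6% of all windows. The windows held a median of 4 CpG, as did those of other lncRNA genes, against 13 in those of protein-coding genes. For the 2 most abundant genes, the last 150 bases of the window, which end 50 bases after the start, are shown 5′ to 3′ with TATAAA in capitals. The first base of TATAAA lies 25 bases before the start of C86187 and 30 before that of Arhgap20os.
C86187 (chr7:46975862-46976011, GRCm38.p6, minus strand): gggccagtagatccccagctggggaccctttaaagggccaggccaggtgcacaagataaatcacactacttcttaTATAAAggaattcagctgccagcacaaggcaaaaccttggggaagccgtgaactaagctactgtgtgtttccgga
Arhgap20os (chr9:51875836-51875985, GRCm38.p6, minus strand): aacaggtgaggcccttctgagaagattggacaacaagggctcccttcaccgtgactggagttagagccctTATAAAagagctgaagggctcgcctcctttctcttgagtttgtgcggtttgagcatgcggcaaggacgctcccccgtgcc

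Some of the start regions resembled each other. Of the 95 windows, 12 (12.6%) aligned over at least 80 bases at 75% identity or more, in the same orientation, with the window of another of the 175 genes, while 1.76% of windows of other lncRNA genes and 0.409% of those of protein-coding genes aligned with one. They formed 4 families: Gm3143, Gm17751, Gm19299 and Gm30551; A730082K24Rik, 2410021H03Rik and 0610040F04Rik; Gm5165, Gm6712 and BC002059; and AA536875 with Gm16497. Gm5165, Gm6712 and BC002059 lie on chromosome 17 and their windows are 92.4 to 95.4% identical, so counts of these 3 may be split between near-identical copies. The first family is spread over chromosomes 3, 1, 9 and 13 and holds 2 of the 10 most abundant genes. Its windows are shown because these genes moved in different directions in the comparisons below. Capitals mark the bases identical in the alignment with Gm3143, and in Gm3143 itself those identical in all 3 alignments.
Gm3143 (chr3:34716613-34716912, GRCm38.p6, minus strand): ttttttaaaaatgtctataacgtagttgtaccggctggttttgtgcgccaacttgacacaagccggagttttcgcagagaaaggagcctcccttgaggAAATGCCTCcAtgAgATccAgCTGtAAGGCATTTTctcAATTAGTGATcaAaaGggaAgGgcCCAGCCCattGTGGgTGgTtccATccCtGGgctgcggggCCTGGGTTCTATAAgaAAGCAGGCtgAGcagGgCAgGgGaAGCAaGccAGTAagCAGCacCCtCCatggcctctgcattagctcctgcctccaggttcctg
Gm17751 (chr1:76488883-76489182, GRCm38.p6, plus strand): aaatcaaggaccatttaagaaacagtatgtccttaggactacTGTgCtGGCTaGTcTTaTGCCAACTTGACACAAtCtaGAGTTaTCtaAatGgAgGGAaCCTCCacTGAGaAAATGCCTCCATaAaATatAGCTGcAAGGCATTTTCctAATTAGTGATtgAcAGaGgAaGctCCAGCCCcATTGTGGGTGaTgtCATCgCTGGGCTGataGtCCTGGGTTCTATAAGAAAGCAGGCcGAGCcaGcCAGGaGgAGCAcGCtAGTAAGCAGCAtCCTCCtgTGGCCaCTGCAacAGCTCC
Gm19299 (chr9:67133311-67133610, GRCm38.p6, plus strand): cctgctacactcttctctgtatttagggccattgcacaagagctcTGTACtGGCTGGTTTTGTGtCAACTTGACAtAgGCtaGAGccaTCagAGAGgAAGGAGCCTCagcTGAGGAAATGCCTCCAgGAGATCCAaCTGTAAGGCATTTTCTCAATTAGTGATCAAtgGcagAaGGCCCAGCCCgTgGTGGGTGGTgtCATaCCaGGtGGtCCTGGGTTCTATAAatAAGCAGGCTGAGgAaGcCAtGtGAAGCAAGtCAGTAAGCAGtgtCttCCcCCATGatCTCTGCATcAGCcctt
Gm30551 (chr13:103707584-103707883, GRCm38.p6, minus strand): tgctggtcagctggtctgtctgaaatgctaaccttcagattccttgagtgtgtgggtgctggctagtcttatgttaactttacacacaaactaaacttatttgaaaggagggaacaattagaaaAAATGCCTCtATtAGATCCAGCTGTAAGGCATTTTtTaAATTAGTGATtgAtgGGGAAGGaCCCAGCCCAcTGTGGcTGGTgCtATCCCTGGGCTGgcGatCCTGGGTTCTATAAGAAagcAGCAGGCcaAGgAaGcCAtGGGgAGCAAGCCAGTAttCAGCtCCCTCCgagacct

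Identity with the Gm3143 window was 77.3% over 260 aligned bases for Gm17751, 78.7% over 258 for Gm19299 and 82.2% over 169 for Gm30551. The longest run present in all 4 windows was CCTGGGTTCTATAA, which begins 51 bases before the annotated start of Gm3143, 36 before that of Gm17751, 39 before that of Gm19299 and 25 before that of Gm30551. Searched on both strands, this run occurred in 18 of all 32851 windows (0.0548%), and 5 of those 18 belonged to the expressed lncRNAs. These are the 4 windows from which the run was taken, and that of Gm16497. At the other end of the transcripts, an AATAAA signal within the last 40 bases was found for 86 of the 175 genes (49.1%), close to the 53.3% of other genes with a non-coding transcript.

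The first comparison set aged oocytes in aged somatic cells against young oocytes in young somatic cells. Of the 175 genes, 36 were called at an adjusted p under 0.05, which is 20.6% of them beside 27.5% of all 8533 genes tested. AA was higher for 20 (background 12.8%) and lower for 16 (background 14.7%). Of the 5627 protein-coding genes of at least 20 CPM, 31.9% were called, 16.3% higher and 15.6% lower in AA. In the comparisons below, taken in order, the called share of these protein-coding genes was 7.54%, 1.85%, 3.09% and 0.142%. The median log2 fold change was -0.03, beside -0.01 over all genes tested. All 175 genes passed the filter on low counts, as they did in each comparison below.

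Gm52988, on chromosome 18 (83030028 to 83096981), had the smallest p. Its level was 81.3 to 234.8 CPM in AA (median 163.7) and 42.4 to 124 in YY (median 65.1). All 12 AA libraries lay above the YY median, though the ranges overlapped. It rose in AA by a log2 of 0.97 ± 0.17 (SE, adjusted p = 4.93e-05). The 9 AA libraries of pattern 2 were at 117 to 234.8 CPM and the 3 of pattern 6 at 81.3 to 106. The 2 YY libraries of pattern 5 were at 114 to 124 CPM. Gm14820, which overlaps the H3K9 methyltransferase gene Suv39h1 on the other strand on chromosome X (7909182 to 7940859), ranged from 396 to 527.003 CPM in AA (median 433) and from 236 to 437 in YY (median 320). It rose by 0.48 ± 0.10 (adjusted p = 0.000224), with 12 of 12 AA libraries above the YY median.

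Gm44621, on chromosome 8, rose by 0.73 ± 0.15, from 66.9 ± 19.7 CPM in YY to 112 ± 31.3 in AA (SD). AY512915, which overlaps the predicted gene Gm10234 on the other strand, rose by 0.75 ± 0.16, from 73.7 ± 24.97 to 124 ± 30.1 CPM. Gm4961 rose by 0.59 ± 0.13, from 61.8 ± 15.8 to 93.4 ± 17.6 CPM. In each of these 3, 11 or 12 of the 12 AA libraries lay above the YY median. Among the most abundant lncRNAs, 2 were also higher in AA, Gm3143 by 0.67 ± 0.17 (adjusted p = 0.00333) and A730082K24Rik by 0.43 ± 0.12 (adjusted p = 0.00505). The YY libraries of patterns 3 and 8 held Gm3143 at 190 to 233 CPM and those of patterns 5 and 10 at 341 to 706. Its call was lost against YY libraries S198 to S202 alone (edgeR adjusted p = 0.101).

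Among the genes that fell, 4933427D06Rik had the smallest p. Its level was 230 to 388 CPM in AA (median 311) and 320 to 548 in YY (median 443), a log2 change of -0.48 ± 0.09 (adjusted p = 8.19e-05). Gm1965, whose start lies downstream of it on the same strand of chromosome 6, 30962 bases away, fell by 0.33 ± 0.07 on the log2 scale, from 781 ± 52.8 CPM in YY to 624 ± 82.3 in AA. Gm839, the next of these genes on chromosome 6 and chosen after its values were seen, was at 317 to 452 CPM in AA and 332 to 452 in YY (log2 fold change 0.03 ± 0.08, adjusted p = 0.834). The first 2 genes of this cluster of 3 were thus lower in AA, and the third was not called.

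Gm4566 lies on chromosome 17 (71640196 to 71648800, minus strand), 2684 bases from Smchd1, a chromatin protein gene that maintains X inactivation and acts on imprinted genes. Its level was 22.2 to 49.5 CPM in AA (median 32.7) and 32.2 to 73.004 in YY (median 62.2), and it fell by 0.79 ± 0.15 on the log2 scale (adjusted p = 0.000108). All 12 AA libraries lay below the YY median. Young control oocytes spanned 19.97 to 77.7 CPM with culture (median 31.4) and 9.93 to 64.7 without (median 31.4), so their medians lay near that of AA. Smchd1 itself differed by -0.44 ± 0.20 (adjusted p = 0.0996), which was not called.

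Gm17751, on chromosome 1 (76465770 to 76478666), fell most among the abundant genes. Its level was 86.2 to 430 CPM in AA (median 172) and 212 to 559 in YY (median 446), a log2 change of -1.09 ± 0.23 (adjusted p = 0.000935). Gm44796, which starts 1690 bases from the zinc finger gene Zfp111, fell by 0.48 ± 0.10 on the log2 scale, from 214 ± 35.5 to 154 ± 27.7 CPM. Arhgap20os fell by 0.31 ± 0.09 and C86187 by 0.23 ± 0.07 (adjusted p = 0.00665 and 0.0133). Igf1os, antisense to the growth factor gene Igf1 and picked with its values in view, fell by 1.03 ± 0.32 (adjusted p = 0.0154), with 4.61 to 26.8 CPM in AA and 2.13 to 49.0 in YY.

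Gm3143 and Gm17751 have alike start regions but moved in opposite directions in AA. Of the other 2 genes with that start region, Gm19299 rose by 0.43 ± 0.16 (adjusted p = 0.0406) and Gm30551 differed by -0.30 ± 0.25 (adjusted p = 0.396). In the second family A730082K24Rik rose, while 2410021H03Rik (-0.25 ± 0.22, adjusted p = 0.431) and 0610040F04Rik (-0.05 ± 0.13, adjusted p = 0.806) were not called.

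Granulosa markers moved with this comparison, with a median summed level of 107 CPM in AA against 74.3 in YY, and their part in these differences was not tested. YY held 2 series of library numbers, and the size of several differences followed the series. Libraries S198 to S202 held only patterns 3 and 5, and S225 to S231 only patterns 8 and 10. The series are therefore also a division by pattern and not a separate check. Against the 5 YY libraries numbered S198 to S202 alone, 12 of the 175 genes were called, and against the 6 numbered S225 to S231, 39. Of all genes tested, 451 of 8311 and 3151 of 8260 were called in these 2 fits. Of 16 genes followed one by one, 6 kept their call against the first series and 14 against the second. A730082K24Rik differed by 0.10 and 0.77 on the log2 scale against the first and second series, Gm4961 by 0.25 and 0.92, Gm14820 by 0.26 and 0.68, AY512915 by 0.41 and 1.08, 4933427D06Rik by -0.27 and -0.63, and Gm4566 by -0.56 and -0.96. Each of these 6 was called against the second series and not against the first. The same held for Gm52988, which differed by 0.69 and 1.23 (edgeR adjusted p = 0.0539 and 1.58e-06). Gm44621, Gm17751, Gm44796, Gm1965 and Arhgap20os were called against both. With the libraries of each set summed to 1 sample, none of the 175 genes was called by edgeR, and 20 had an unadjusted p under 0.05. Of all 8533 genes tested, 2 were called. An unadjusted p under 0.05, here and below, would be reached by about 1 in 20 genes without a difference. The number of all genes that reached it was not counted.

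**Figure D2:**
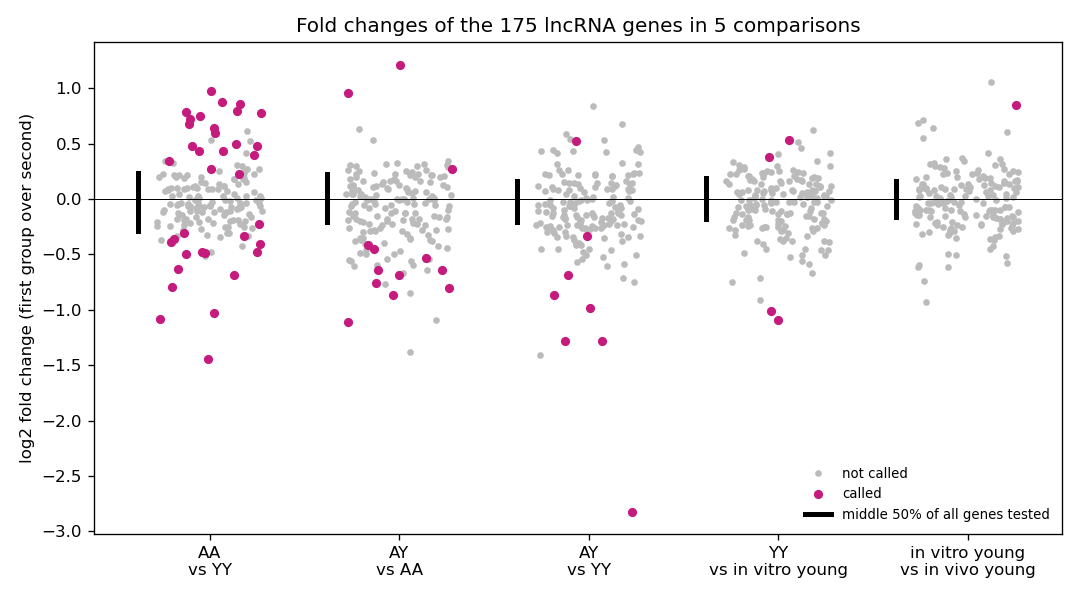
Log2 fold changes (first group over second, vertical axis) of the 175 lncRNA genes in the 5 comparisons, 1 point per gene with random sideways spread, called genes (adjusted p under 0.05) in magenta, and a black bar for the middle 50% of all genes tested. Called genes number 36, 13, 8, 4 and 1 from left to right.

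The next comparison set aged oocytes in young somatic cells against aged oocytes in aged somatic cells, and so asked what the somatic cells change around an aged oocyte. Of the 175 genes, 13 were called (7.43%, beside 6.59% of all genes tested). AY was higher for 3 (background 3.52%) and lower for 10 (background 3.07%), and the median log2 fold change was -0.05, beside 0.00 over all genes.

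Gm4566 had the smallest p of these genes. It was at 46.9 to 106 CPM in AY (median 69.6), against 22.2 to 49.5 in AA (median 32.7). Only the lowest AY library lay within the AA range, and the gene rose by a log2 of 1.21 ± 0.17 (adjusted p = 1.22e-05). Smchd1 differed by 0.47 ± 0.24 (adjusted p = 0.242). Gm17751 rose by 0.96 ± 0.27 (adjusted p = 0.0315), with 238 to 657 CPM in AY (median 388), and C86187 by 0.28 ± 0.08 (adjusted p = 0.0403). For all 3, 6 of 6 AY libraries lay above the AA median. The 3 AA libraries of pattern 6 held Gm17751 at 286 to 430 CPM, within its AY range. Its call was kept in 5 of 11 alternatives other than leaving out 1 library.

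Gm52988 fell by 1.11 ± 0.21 on the log2 scale (adjusted p = 0.00134), with 50.2 to 89.2 CPM in AY (median 75.2) against 81.3 to 234.8 in AA. Gm47272, which overlaps the flippase gene Atp9b on the other strand of chromosome 18 (80865462 to 80881707), was at 77.7 to 164.6 CPM in AY (median 85.2) and 126 to 219 in AA (median 168). It fell by 0.68 ± 0.15 (adjusted p = 0.00611), and Atp9b differed by 0.01 ± 0.34. Gm14004 fell by 0.80 ± 0.20, from 67.9 ± 18.1 CPM in AA to 38.4 ± 9.80 in AY. Gm39469, protein-coding in RefSeq, fell by 0.75 ± 0.20, from 53.4 ± 10.3 to 32.5 ± 9.75 CPM. Gm13990 fell by 0.54 ± 0.15, from 87.7 ± 9.56 to 60.1 ± 13.6 CPM. Gm14820 also fell, by 0.42 ± 0.12 (adjusted p = 0.0253).

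This comparison and the first share the AA libraries, so their values are not independent. Side by side, Gm4566 differed by -0.79 in AA against YY and by 1.21 in AY against AA, Gm52988 by 0.97 and -1.11, Gm17751 by -1.09 and 0.96, and Gm14820 by 0.48 and -0.42. In AY against YY, which does not use AA, the same genes differed by 0.42 ± 0.17 (Gm4566, adjusted p = 0.23), -0.14 ± 0.21 (Gm52988, adjusted p = 0.833), -0.13 ± 0.27 (Gm17751, adjusted p = 0.902) and 0.07 ± 0.12 (Gm14820, adjusted p = 0.865), and none was called.

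The calls in AY against AA rested on few libraries. Without AY replicate 1, 3 genes were called, without AY replicate 5, 8, and without AY replicate 6, 6. Over all genes tested the counts were 203 of 8664, 424 of 8689 and 306 of 8690. Gm4566, Gm52988 and Gm47272 kept their call whichever of the 18 libraries was left out. Without AY replicate 1 the calls of C86187, Gm13990, Gm14004, Gm14820, Gm17751 and Gm39469 were lost, with adjusted p of 0.0734, 0.076, 0.0635, 0.117, 0.0734 and 0.0767. With sets of libraries summed, 0 genes were called by edgeR (1 of all 8533), and 13 had an unadjusted p under 0.05. With the pattern as a random block in limma voom, 3 genes were called (80 of all 8533).

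**Figure D3:**
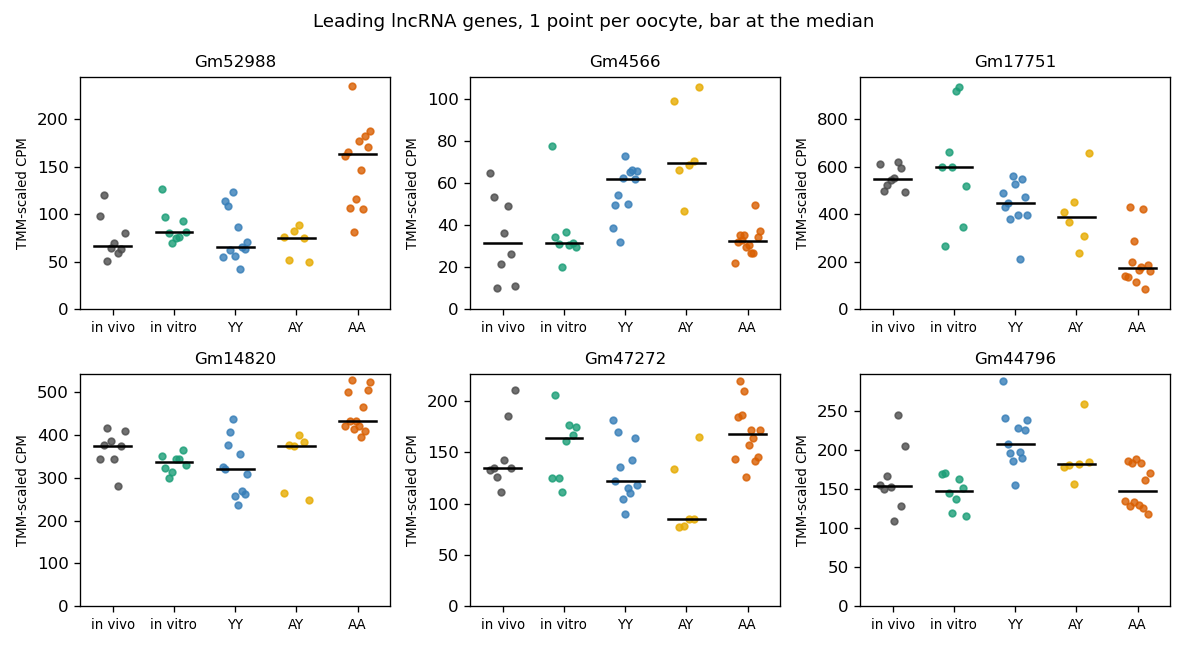
TMM-scaled CPM of 6 lncRNA genes in the 5 groups (linear axes from 0), 1 point per oocyte and a bar at the median. Gm52988 is highest in AA (median 163.7 CPM) and Gm17751 lowest there (median 172), Gm4566 is near 32.7 CPM in AA and 69.6 in AY, and Gm47272 is lowest in AY (median 85.2).

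Aged oocytes in young somatic cells were then set against young oocytes in young somatic cells. Of the 175 genes, 8 were called (4.57%, beside 1.62% of all genes tested), 1 higher in AY (background 0.715%) and 7 lower (background 0.902%). The median log2 fold change was -0.11, beside -0.01 over all genes.

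A530021J07Rik, on chromosome 7 and protein-coding in RefSeq, was at 12.3 to 21.8 CPM in AY (median 12.8) and 16.6 to 48.1 in YY (median 37.2). It fell by 1.29 ± 0.28 on the log2 scale (adjusted p = 0.00831). Gm28578, on chromosome 19, fell by 2.82 ± 0.59 (adjusted p = 0.0106), with 7.43 to 40.2 CPM in AY (median 25.3) and 26.0 to 333 in YY (median 203). The YY libraries of pattern 8 held it at 26.0 to 55.7 CPM and those of pattern 3 at 249 to 333. Gm28387 fell by 0.98 ± 0.22, from 46.5 ± 13.2 to 23.3 ± 9.45 CPM. BB557941, which lies 3475 bases from the nuclear receptor gene Nr4a2, fell by 0.68 ± 0.16, from 63.9 ± 10.8 to 39.4 ± 4.78 CPM. Gm14004 fell by 0.86 ± 0.21 and Gm1965 by 0.33 ± 0.09 (adjusted p = 0.0165 and 0.0371), while Gm44113, outside the naming rule, fell by 1.28 ± 0.35 (adjusted p = 0.0468). Gm43950 rose by 0.52 ± 0.14 (adjusted p = 0.0405), from 74.9 ± 14.0 CPM in YY to 108 ± 17.9 in AY.

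For every one of these except Gm44113, which was not examined this way, all 6 AY libraries lay beyond the YY median in the direction of the call, and the ranges overlapped. Gm14004 was also lower in AY than in AA, and A530021J07Rik, Gm28578, Gm28387, BB557941 and Gm1965 were also lower in AA than in YY. These comparisons share libraries and their values are not independent. The count was 5 without AY replicates 1 or 4 or YY replicates 7 or 10 (88 to 117 of all genes tested). It was 4 without AY replicates 2 or 5 (85 and 84 of all genes tested). Against YY libraries S198 to S202 alone it was 5 (134 of all 8311 genes tested), and against S225 to S231 alone 21 (847 of 8260). With the sets of libraries summed it was 0 by edgeR (0 of all 8533 genes tested), with 16 genes at an unadjusted p under 0.05. With the sets as a random block it was 0 by limma voom (22 of all 8533), with 19 genes at an unadjusted p under 0.05. With the replicate number as a block in edgeR it was 4 (107 of all 8533). The calls of Gm1965 (adjusted p = 0.0867), Gm43950 (0.0615) and Gm28578 (0.0933) were among those lost. Gm1965 and Gm43950 each kept their call in 7 of the 17 fits that left out 1 library. Granulosa markers had a median summed level of 102 CPM in AY against 74.3 in YY, and their part in these differences was not tested.

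Young oocytes of chimeric follicles were compared with cultured young oocytes to show what the transfer procedure changes. Of the 175 genes, 4 were called (2.29%, beside 2.48% of all 8749 genes tested), 2 higher in YY (background 0.777%) and 2 lower (background 1.7%). The median log2 fold change was -0.03, beside 0.01. Gm44796 was at 155 to 288 CPM in YY (median 208) and 116 to 170 in the cultured oocytes (median 147.9), and rose by 0.54 ± 0.12 (adjusted p = 0.0118). Zfp111 beside it was not called. 4933427D06Rik rose by 0.38 ± 0.10 (adjusted p = 0.0353), from 330 ± 48.0 to 430 ± 79.4 CPM. The call of 4933427D06Rik was kept in 10 of 19 fits that left out 1 library and in 6 of 13 other alternatives, and was lost with the replicate number as a block (adjusted p = 0.124). Both genes were also lower in AA than in YY, but the comparisons share the YY libraries and their values are not independent. The AA medians were 148.1 and 311 CPM, beside 147.9 and 317 in the cultured young oocytes.

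Gm45040, which overlaps the ovochymase gene Ovch2 on the other strand, was at 29.2 to 75.1 CPM in YY (median 49.5) and 42.9 to 158 in the cultured oocytes (median 98.3). It fell in YY by 1.01 ± 0.22 on the log2 scale (adjusted p = 0.00868). Gm48704 fell by 1.09 ± 0.27 (adjusted p = 0.0221), from 78.5 ± 35.7 to 36.6 ± 19.8 CPM. The count was 7 without the cultured replicate 2 (318 of all genes tested). It was 2 without the cultured replicates 5 or 6 (114 and 126 of all genes tested). It was 2 with YY libraries S198 to S202 alone (99 of all 8996 genes tested) and 12 with S225 to S231 alone (803 of 8925). Oocyte markers moved with this comparison, with a median summed level of 16219.5 CPM in YY against 23723 in the cultured oocytes (22702 in the uncultured), and their part in these differences was not tested.

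Culture by itself was examined with the cultured against the uncultured young oocytes. Of the 175 genes, 1 was called (0.571%, beside 0.137% of all genes tested), higher in the cultured oocytes (background 0.126%), and 0 were lower (background 0.0114%). The number at an unadjusted p under 0.05 was 24, which about 1 in 20 genes would reach without a difference. DESeq2 called 4, beside 44 of all 8749 genes tested. Gm43303, on chromosome 5 (45350011 to 45409272), was at 62.6 to 117 CPM in the cultured (median 86.9) and 33.1 to 72.5 in the uncultured oocytes (median 50.1), a rise of 0.85 ± 0.18 (adjusted p = 0.0318). All 8 cultured libraries lay above the uncultured median. The call was kept in 5 of the 16 fits that left out 1 library. It was lost without cultured replicates 1, 2, 3, 5, 6 or 8 and without uncultured replicates 3, 4, 5, 7 or 8, at an adjusted p of up to 0.0991.

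The lncRNAs were also set beside the protein-coding genes next to them. Of 65 genes with such a neighbour, 34 had one that could be tested in the chimeric groups and 37 in the comparisons with the controls. In AA against YY, 6 of the 34 lncRNAs and 8 of the 34 neighbours were called, and in 0 pairs were both. Across the pairs, Pearson's r between the 2 log2 fold changes was 0.15 in AA against YY, 0.00 in AY against AA, 0.22 in AY against YY, 0.03 in YY against cultured and -0.02 in cultured against uncultured oocytes. These correlations are across genes of the same libraries and carry no test. The phosphatase gene Ppm1b fell in AA by 0.97 ± 0.16 on the log2 scale (adjusted p = 1.31e-05), while 1110020A21Rik, which overlaps it on the other strand, differed by -0.18 (adjusted p = 0.306). Sap30, a subunit of histone deacetylase complexes, fell by 0.88 ± 0.27 (adjusted p = 0.0137), while 2500002B13Rik, which starts 193 bases away, differed by 0.22 (adjusted p = 0.0865). Both pairs were chosen after their values were seen. Arhgap20 differed by -0.32 ± 0.20 in AA (adjusted p = 0.239) beside the called -0.31 of Arhgap20os. Ston1, an endocytic adaptor gene, differed by 0.40 ± 0.25 (adjusted p = 0.244) beside -0.04 for Gm50056. Suv39h1, Ovch2, Tmco5 (beside Gm13990) and Gm10234 did not pass the filter on low counts.

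Within groups, some of these genes followed the sets of libraries closely. The share of a gene's variance within groups that lay between sets had a median of 30.8% over the 175 genes and 33.3% over protein-coding genes of that level, where 25% would be found with sets that do not differ. It reached 70% for 8 genes (4.57%), against 2.05% of the protein-coding genes: Gm43269 (92.3%), Gm3143 (92.3%), AA536875 (84.5%), D6Ertd474e (82.3%), Gm49871 (77.4%), Gm49870 (74.5%), Gm28578 (71.4%) and Gm44113 (70.7%). Gm49870 and Gm49871 overlap on the same strand and may share reads. These genes were chosen by that share, so the values that follow are a description.

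Gm3143 took 2 levels among the controls. In uncultured young oocytes it was at 207 to 268.5 CPM in the 4 libraries of pattern 7 and at 525 to 737 in the 4 of patterns 4 and 5. Cultured young oocytes showed the same division, with 179 to 209 CPM in the 5 libraries of patterns 3 and 7 and 470 to 639 in the 3 of patterns 4 and 5. In YY the libraries of patterns 3 and 8 were at 190 to 233 CPM and those of patterns 5 and 10 at 341 to 706. AA and AY held no library at the low level, with 426 to 666 and 383 to 543 CPM. The ranges of the low and high sets did not overlap in any of these 3 groups.

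Gm43269 was divided otherwise. In uncultured oocytes it was at 490 to 990 CPM in pattern 7, 280 to 291 in pattern 5 and 128.1 to 138 in pattern 4. In AA it was at 238 to 406 CPM in the 9 libraries of pattern 2 and at 66.0 to 124 in the 3 of pattern 6. AA536875 was at 141 to 265 CPM in the AA libraries of pattern 2 and 21.4 to 49.5 in those of pattern 6, and Gm28578 at 22.3 to 46.6 and 137 to 161. D6Ertd474e was at 551 to 601 CPM in the 3 YY libraries of pattern 3 and at 100 to 457 in the other 8. AA536875 was called in AA against YY (0.88 ± 0.33, adjusted p = 0.0461), but kept the call in only 7 of 23 fits that left out 1 library. Gm28578 fell by 1.44 ± 0.41 (adjusted p = 0.0101) and kept the call in 23 of 23 such fits, but lost it with the replicate number as a block (adjusted p = 0.0609), with the sets as a random block (0.28), with the sets summed (0.72) and against YY libraries S225 to S231 alone (0.0822).

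**Figure D4:**
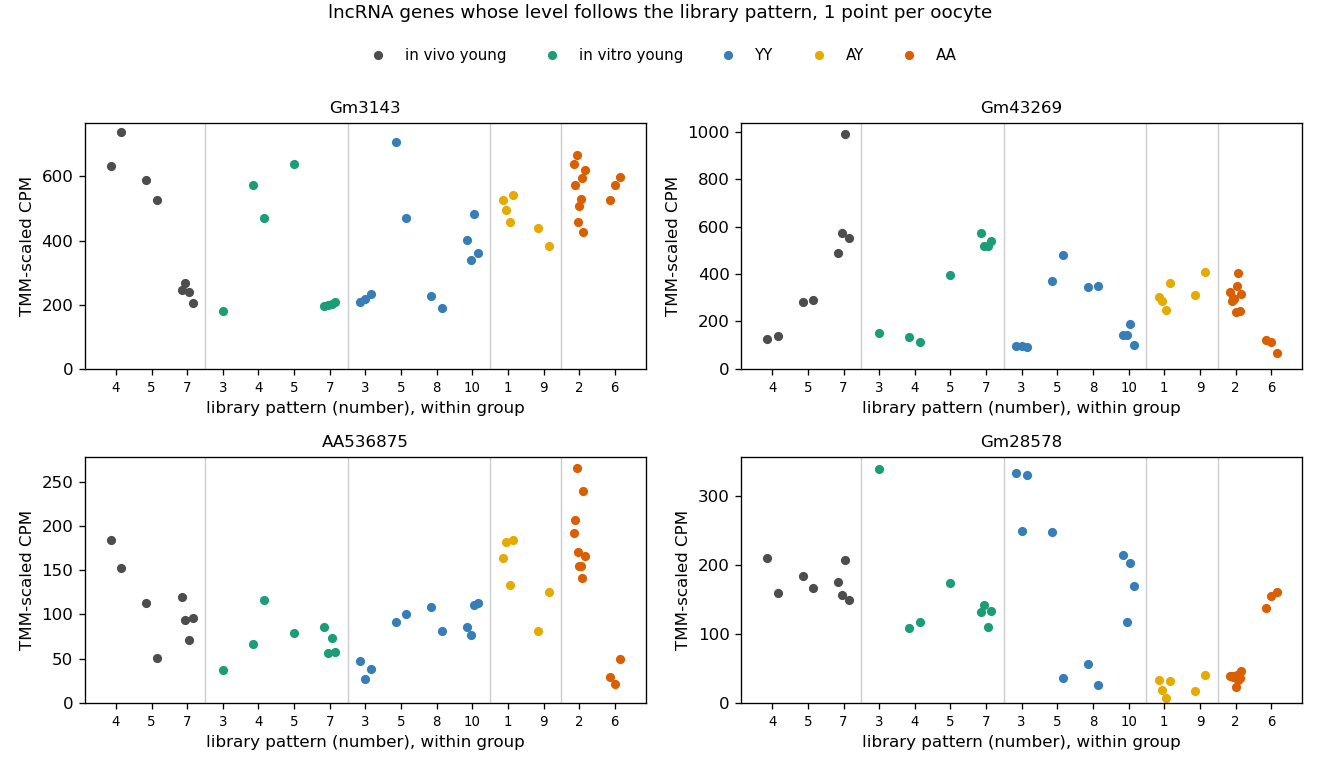
TMM-scaled CPM (vertical axes, linear from 0) of 4 lncRNA genes in each set of libraries, with the library pattern on the horizontal axis, 1 point per oocyte and colours for the groups. Gm3143 sits at 179 to 268.5 CPM in patterns 3, 7 and 8 and higher in the other patterns, and in AA the 3 libraries of pattern 6 lie apart from the other 9 for Gm43269, AA536875 and Gm28578.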

How the data were processed

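The authors deposited whole-number counts of reads per gene, not normalized, for 55357 genes in 45 libraries. The submitters' processing notes name the build mm39, HTSeq 0.11.0 and STAR 2.7.8a; the counting options are not known. Per the labels' protocols, a NEBNext low-input kit was used on single lysed oocytes. Columns were matched to samples by library number, and each library was 1 sample (lowest chi-square per degree of freedom between libraries of a group 1.98). The counts carry no molecular identifiers.

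All genes were tested with edgeR 4.0.16 in R 4.3.3 (TMM, filterByExpr with minimum count 10 and total 15, robust quasi-likelihood F test, Benjamini-Hochberg over all genes tested, called at adjusted p under 0.05), with AA, AY and YY in a fit of 29 libraries and YY and the controls in another of 27. Standard errors were derived from F. The fit was tested on simulated data. Alternatives used DESeq2 1.42.0, limma 3.58.1, RLE scaling, other filters, blocks and subsets of libraries. Strand and exon length came from GENCODE M21 by gene identifier, start windows from RefSeq (GRCm38.p6), aligned with blastn 2.17.0.

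Members, lists and alternatives were chosen with earlier results of these data known. Genes were named by rule: Gm4566, the 10 highest per kb, and up to 5 called genes per direction and comparison with the smallest p. The rule also took members of the lists, genes at the edge of the level, and neighbours that overlap or start within 2 kb. Smchd1 and Nr4a2, which lie farther than 2 kb from their lncRNA genes, were named outside this rule. Also named, by their level, position, spread or start region, were genes chosen after their values were seen: the rest of the 10 highest by CPM in the comparisons, Gm839, Gm49371, Gm44113, Igf1os, Gm34045, members of the start-region families and genes that follow the library sets. A check whether same-numbered replicates deviate together found correlations over 0.1 in 2 of 11 pairs for AA and YY, 0 of 6 for AY and AA, 3 of 6 for AY and YY, 0 of 8 for YY and cultured and 4 of 8 for cultured and uncultured oocytes. As no comparison had every pair over 0.1, the numbers were not taken to pair samples.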

Additional observations from a re-analysis of the deposited data

Results flagged for a closer look

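For the genes followed individually, each group of 6 or 8 libraries was examined for a library standing apart (Dixon's gap at its 95% value); chance gives about 1 in 20, and 10 of 114 groups had such a library. Among the cultured young oocytes, replicate 2 stood apart for 5 genes: it was highest for 4933427D06Rik (438 CPM, next 349), Arhgap20os (1098, next 794), D6Ertd474e (428, next 221) and Gm28578 (339, next 173), and lowest for Gm839 (245, next 299.8). It is the only cultured library of pattern 3. Cultured replicate 1 was highest for Gm4566 (77.7, next 36.7) and replicate 3 for Gm30551 (39.7, next 26.9). In AY, replicate 5 was highest for A530021J07Rik (21.8, next 15.5) and Gm44796 (259, next 185), and replicate 1 for Gm30551 (29.99, next 14.5).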

How the results depend on the processing

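No fold change of the 37 results for single genes changed direction in 1202 values under alternatives, of which 1018 kept the call and 184 lost it. Leaving out 1 library gave 31 to 35 calls in AA against YY, 3 to 14 in AY against AA, 4 to 9 in AY against YY, 2 to 7 in YY against cultured and 0 to 1 in cultured against uncultured oocytes. Over all genes the ranges were 1961 to 2514, 203 to 607, 84 to 155, 114 to 352 and 0 to 18. With the replicate number as a block, 32, 19, 4, 3 and 0 of the 175 genes were called in that order. The counts over all genes were 2250, 1078, 107, 115 and 6. With library sets summed, 0 of the 175 genes were called in each, with 20, 13, 16, 12 and 17 at an unadjusted p under 0.05. About 1 in 20 genes would reach that p without a difference, and its number over all genes was not counted. Over all genes tested, the summed sets gave 2, 1, 0, 0 and 0 calls. With the pattern as a random block the counts were 18, 3, 0, 2 and 3, and 1081, 80, 22, 147 and 29 over all genes. In the fit behind the last 2, patterns 3, 4, 5 and 7 each occurred in more than 1 group. AA, AY and YY shared no pattern in the fit behind the first 3. For AA against YY, YY libraries S198 to S202 alone gave 12 (451 over all genes). For AY against YY, they gave 5, libraries S225 to S231 gave 21, and a fit of the 2 groups alone 5. Over all genes these 3 fits called 134, 847 and 79. For YY against cultured oocytes the count was 2 without a group filter and 7 at a minimum count of 30. It was 1 with the number of detected genes as a covariate, 8 with voom, 7 with DESeq2 and 7 with all 45 libraries. YY S198 to S202 gave 2 and S225 to S231 gave 12. Over all genes these fits called 189, 255, 67, 532, 404, 378, 99 and 803. For cultured against uncultured oocytes the count was 0 with the covariate, 4 with voom, 4 with DESeq2, 2 with all 45 libraries and 3 with the 2 groups alone. Over all genes these fits called 0, 37, 44, 29 and 20. TMM-scaled CPM would choose 174 genes and the mean of group means 176, of which 174 are among the 175. Without mitochondrial counts the share on these genes was 1.78% in AA and 1.92% in YY. At 20 CPM a library of 418703 counts holds few reads of a gene, so small differences of the lowest genes were not detectable.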
